A study of Homo sapiens with 26 samples.

Results

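The nuclear ribosomal RNA (rRNA) rows of the count files are described here. The rows RNA28S5, RNA18S5 and RNA5-8S5 were taken from 24 files of sucrose gradient fractions, where they are 3 of 56638 gene rows. The row CT010467.1 was taken from 2 input files, where it is 1 of 55353 rows. They were chosen by measured values, namely their share of the counts and the 18S to 28S ratio by fraction, treatment and replicate, so those values are given as a description and were not tested. Both input files use mouse-style row names although the samples are labelled human, and no source used here annotates CT010467.1, so no role is given to it.

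Human ribosomes hold 4 rRNAs. RNA polymerase I (Pol I) transcribes a long 45S precursor in the nucleolus, and nucleases cut it into 18S, 5.8S and 28S rRNA, while 5S rRNA is made elsewhere by RNA polymerase III. The small subunit (40S) is built on 18S rRNA, the large subunit (60S) on 28S, 5.8S and 5S rRNA, and the complete ribosome (80S) and the polysome, an mRNA with several ribosomes, hold all of them. A sucrose gradient separates these particles by how fast they sediment.

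The cells were SK-MEL-28, an established human melanoma line, of which 13 samples had been kept in salubrinal for 72 h and 13 had not (control). Salubrinal keeps eIF2α, a translation initiation factor, phosphorylated and is used to switch on the integrated stress response. Before lysis, all cells received cycloheximide, which arrests ribosomes on mRNA, at 100 µg per mL for 12 min, and lysates were spun through 5 to 20% sucrose. Gradient cuts were pooled into 4 samples titled 40S, 60S, 80S and polysome, each with 3 replicates per treatment, and each treatment had 1 input sample that was not fractionated. The cell line field holds 26 different numbered names over the 26 samples, but SK-MEL-28 stands in all titles, which were taken as right. Whether replicates came from different cultures is not stated, and a p-value here covers just the spread among these samples, which may be technical.

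Fraction files held 6627394 to 12984883 counts, of which 81.6 to 92.8% were reads not placed uniquely and 4.72 to 5.79% (361480 to 693970 counts) lay on gene rows. Outside all rRNA-named rows only 864 to 23679 counts per file remained. On those remaining rows the 4 fraction files of a replicate agreed within sampling noise (chi-square per degree of freedom 0.937 to 1.03), which sorted the 24 files into 6 sets of 4. This matching went against the titles at 1 place: the control 40S file titled replicate 1 matched the 60S file of replicate 2 (0.807, against 1.90 for replicate 1), and the control 40S file titled replicate 2 matched the 60S file of replicate 1 (0.981, against 2.09 for replicate 2). Group means below use the titles and are the same either way. File set 1 of the control therefore holds the 40S file titled replicate 2, and file set 2 the one titled replicate 1.

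RNA28S5, the row of the large subunit's main RNA, was the highest row in 24 of 24 files, with 12166912 counts in all. In the files titled 40S it took 97.5, 98.1 and 94.9% of gene-row counts with salubrinal (replicates 1, 2 and 3), against 97.7, 95.7 and 92.7% in controls. In 60S files it took 97.3, 97.9 and 94.9% with salubrinal, against 95.7, 97.6 and 92.7% in controls. Files titled for the small subunit and for the large subunit thus carried 28S counts at nearly the same share.

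The 80S files had RNA28S5 shares of 97.4, 98.3 and 94.97% with salubrinal, against 95.6, 97.7 and 92.4% in controls. In polysome files the shares were 97.0, 98.0 and 94.9% with salubrinal, against 95.7, 97.4 and 92.5% in controls. The treatments overlapped in each fraction, and replicate 3 was the lowest of its group throughout. Mean shares with salubrinal were 96.8% ± 1.70 in 40S, 96.7% ± 1.61 in 60S, 96.9% ± 1.71 in 80S and 96.6% ± 1.59 in polysome files, against 95.4% ± 2.51, 95.3% ± 2.45, 95.3% ± 2.66 and 95.2% ± 2.45 in controls (SD, n = 3 each). Every difference between treatments was smaller than the SD within controls.

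RNA18S5, the row of the small subunit's RNA, was second in 24 of 24 files, with 173673 counts. It took 1.49% ± 0.522 of gene-row counts in salubrinal 40S files and 1.08% ± 0.287 in control 40S files. In 60S files its share was 1.61% ± 0.624 with salubrinal and 1.13% ± 0.347 in controls. It was 1.44% ± 0.538 with salubrinal and 1.20% ± 0.219 in controls for 80S, and 1.68% ± 0.709 with salubrinal and 1.25% ± 0.453 in controls for polysomes (SD, n = 3 each). Over all 24 files the share ran between 0.824 and 2.30%, and the treatments overlapped in every fraction.

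The 18S to 28S ratio is given below as RNA18S5 counts per 100 RNA28S5 counts. It is a ratio of counts with no correction for length, and both rows leave out the 81.6 to 92.8% of counts not placed uniquely. It was therefore set only against the same ratio in other files and says nothing on the molar ratio of the RNAs. The part of reads not placed uniquely in the ratio was not tested. With salubrinal it was 1.87, 1.80 and 0.938 in the 40S files of replicates 1, 2 and 3, against 1.42, 1.06 and 0.889 in control 40S files. In 60S files it was 2.10, 1.92 and 0.942 with salubrinal, against 1.03, 1.57 and 0.956 in controls. Salubrinal replicates 1 and 2 stood highest in both fractions, while salubrinal replicate 3 lay among or below the controls.

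For 80S files the ratio was 1.97, 1.58 and 0.904 with salubrinal, against 1.04, 1.46 and 1.27 in controls. For polysome files it was 2.37, 1.87 and 0.956 with salubrinal, against 0.964, 1.81 and 1.14 in controls. The highest of all 24 values was thus the salubrinal polysome file of replicate 1 and the lowest the control 40S file of replicate 3. Exact 95% intervals were narrow, for example 2.32 to 2.42 for the ratio of 2.37, and cover counting error only, since reads without molecular identifiers are not independent molecules.

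**Figure D1:**
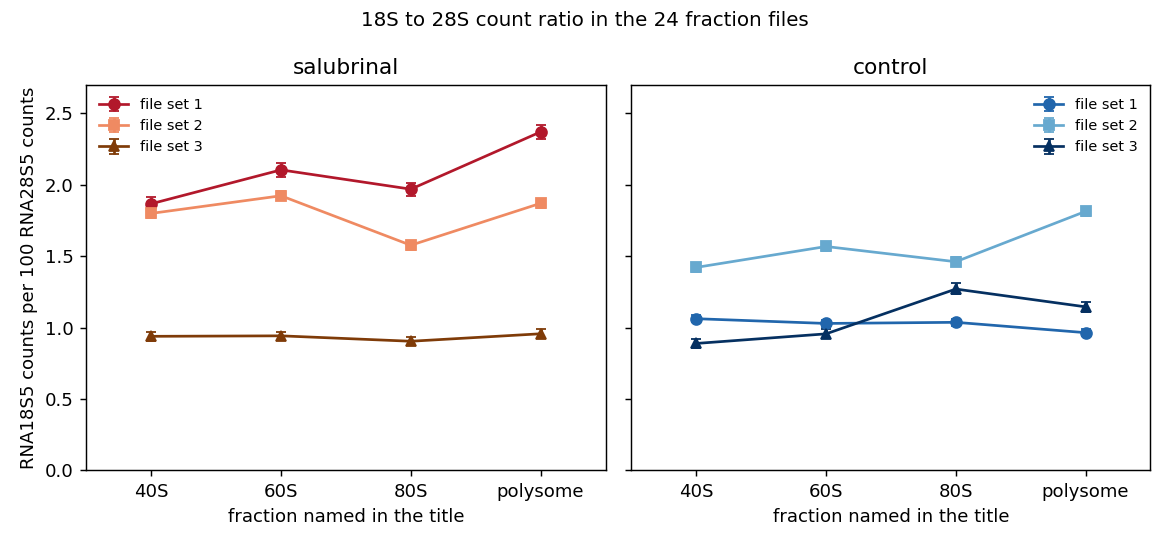
RNA18S5 counts per 100 RNA28S5 counts (vertical axis) by the fraction named in the title (horizontal axis), salubrinal files at left and control files at right. Each line joins the 4 files of a set matched on counts outside rRNA, and bars are exact 95% intervals of counting error. Salubrinal sets 1 and 2 lie between 1.58 and 2.37, and salubrinal set 3 lies between 0.904 and 0.956, within the control range of 0.889 to 1.81 and near its low end.

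Mean ratios were 1.54 ± 0.518 with salubrinal and 1.12 ± 0.272 in controls for 40S, a 1.37-fold difference of means. For 60S they were 1.66 ± 0.626 with salubrinal and 1.18 ± 0.334 in controls (1.40-fold). For 80S they were 1.48 ± 0.539 with salubrinal and 1.26 ± 0.213 in controls (1.18-fold). For polysomes they were 1.73 ± 0.717 with salubrinal and 1.31 ± 0.448 in controls (1.32-fold; SD, n = 3 each). The means differed by less than the SD of the salubrinal files in each fraction. The differences of 0.411, 0.473 and 0.228 in 40S, 60S and 80S files exceeded the control SD, whereas 0.425 in polysome files did not. Leaving out salubrinal replicate 1 put the 80S fold at 0.988, below 1, and the polysome fold at 1.08. Leaving out salubrinal replicate 3 put the folds at 1.63, 1.70, 1.41 and 1.62 in 40S, 60S, 80S and polysome files.

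Across the gradient the ratio changed little in mean beside the spread between files. Over both treatments it averaged 1.33 ± 0.433 in 40S, 1.42 ± 0.518 in 60S, 1.37 ± 0.387 in 80S and 1.52 ± 0.583 in polysome files (SD, n = 6 each), and the ranges of neighbouring fractions overlapped almost wholly. Files titled 40S, the fraction named for the particle that holds 18S and no 28S rRNA, had the lowest mean. Within a set, the 40S ratio divided by the 60S ratio was 0.887, 0.936 and 0.996 in salubrinal sets 1 to 3, against 1.03, 0.907 and 0.930 in control sets 1 to 3. The 40S file was the highest of its set in 1 of 6 sets and the lowest in 3, and the polysome file was the highest in 3 and the lowest in 1. Within sets the ratio still varied, mostly beyond counting error. Chi-square per degree of freedom for RNA18S5 against RNA28S5 was 83.3, 85.8 and 2.16 in salubrinal sets 1 to 3. It was 10.3, 123 and 95.3 in control sets 1 to 3. Rows outside rRNA, with far fewer counts, had 0.937 to 1.03.

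Between sets the ratio moved more than between fractions. The mean ratio of a set was 2.08, 1.79 and 0.935 in salubrinal sets 1 to 3, against 1.02, 1.57 and 1.06 in control sets 1 to 3. The whole range over 24 files was 2.67-fold, while the highest and lowest file of 1 set differed by 1.27-, 1.22- and 1.06-fold in the salubrinal sets and by 1.10-, 1.28- and 1.43-fold in the control sets.

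The sets also differed in how much else they held. Rows other than the 3 rRNA rows took 0.678, 0.175 and 4.21% of gene-row counts in salubrinal sets 1 to 3, against 3.37, 0.885 and 6.42% in control sets 1 to 3. The 3 sets with the highest mean ratio (salubrinal 1, salubrinal 2 and control 2) were the 3 with the lowest share of other rows. In the same 3 sets, reads outside any annotated feature made up 0.881 to 2.53% of all counts, against 6.37 to 12.1% in the other 3. The part of these differences in the ratio was not tested.

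**Figure D2:**
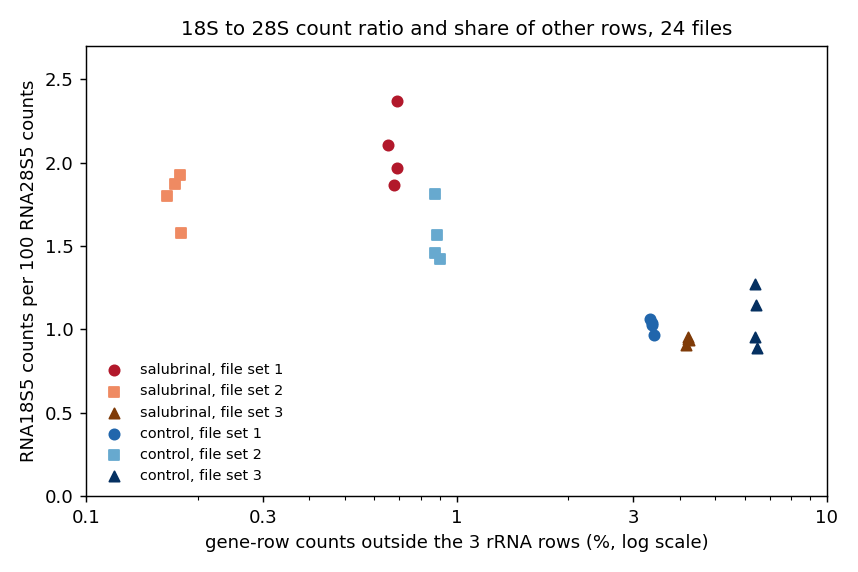
RNA18S5 counts per 100 RNA28S5 counts (vertical axis) against the share of gene-row counts outside RNA28S5, RNA18S5 and RNA5-8S5 (horizontal axis, log scale) in 24 files. Colour and shape mark the 6 file sets. The sets form 6 separate groups, those with under 1% of other counts at mean ratios of 1.57 to 2.08 and those with over 3% at 0.935 to 1.06.

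RNA5-8S5, the row of the short RNA that pairs with 28S rRNA in the large subunit, held only 207 counts over the 24 files. Of these, 174 lay in salubrinal files and 33 in control files, and 163 lay in salubrinal replicates 1 and 2 alone. Its rank among rows ran between 6 and 3708. The row did not pass the filter on low counts in any fraction, whereas RNA28S5 and RNA18S5 passed in all 4.

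In 40S files RNA5-8S5 had 60, 21 and 4 counts with salubrinal, against 5, 2 and 2 counts in controls. Scaled to counts per 1000000 gene-row counts (CPM) these were 159, 30.9 and 9.23 with salubrinal, against 7.84, 3.13 and 5.53 in controls. Every salubrinal 40S file lay above every control 40S file. Among the 225 rows that passed the filter 0% had that order, and nothing is read from this share, because RNA5-8S5 failed the filter, was chosen on these values and sits beside a salubrinal set with only 0.175% of its counts on other rows. The means, 66.3 ± 80.8 with salubrinal and 5.50 ± 2.36 in controls (SD, n = 3 each), differed 12.1-fold, and 3.65-fold without salubrinal replicate 1.

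In 60S files RNA5-8S5 had 8, 16 and 1 counts with salubrinal, against 5, 7 and 0 counts in controls, and the groups overlapped. In 80S files it had 13, 9 and 3 counts with salubrinal, against 0, 4 and 0 counts in controls. The groups did not overlap there by a narrow margin, 6.94 CPM in salubrinal replicate 3 against 6.26 in control replicate 2, which lies within the counting limits given below (0% of the 213 rows passing the filter had that order, and again nothing is read from it). In polysome files it had 18, 18 and 3 counts with salubrinal, against 5, 3 and 0 counts in controls, and the groups overlapped. A count of 0 allows up to 8.09, 4.74, 8.29 and 8.17 CPM in control 60S replicate 3, 80S replicates 1 and 3 and polysome replicate 3. Salubrinal replicate 3, at 2.24, 6.94 and 6.84 CPM in 60S, 80S and polysome files, lay below the limit of control replicate 3 in each, so between those files no difference was detectable at this depth.

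**Figure D3:**
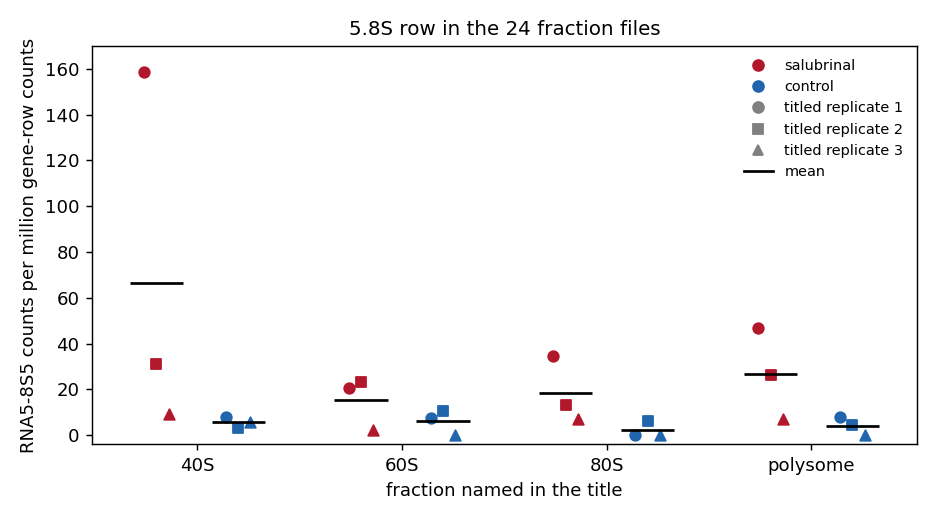
RNA5-8S5 level in CPM of gene-row counts (vertical axis) by fraction (horizontal axis), salubrinal left of control in each fraction. Each point is 1 file, shapes mark the titled replicate, and bars are means of 3. A single salubrinal 40S file at 159 lies far above the other 23 files, which lie at 46.6 or below.

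The row names stand for near-identical gene copies. In a RefSeq table of another human build (GRCh38.p14, used for names only, while the files were made on hg19) all 3 names are older symbols, each now shared by 2 genes, 1 on chromosome 22 and 1 not placed on a chromosome. The table holds 5 copies of the 45S precursor gene, each with 3 mature rRNA genes inside it. Reads not placed uniquely, 81.6 to 92.8% of all counts in the fraction files, were tallied apart and lie on no gene row. The 3 rRNA rows thus leave those reads out. How many of them came from rRNA copies is not given in the sources used, so the level of each row is uncertain. MIR3648 and MIR3687, named as rows of their own, had 0 counts in all 24 files.

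The share of reads not placed uniquely, which the choice of rows did not use and where reads of repeated rRNA genes may lie, was tested. It was 90.3% ± 3.87 with salubrinal and 86.9% ± 4.75 in controls for 40S, a difference of 3.40 percentage points (SD, n = 3 each; p = 0.5 in a two-sided exact permutation test that cannot go below 0.1). For 60S, 80S and polysome files the differences were 3.37, 3.40 and 3.45 points, each with p = 0.5 in the same exact permutation test and an adjusted value of 0.5 over the 4 fractions. Salubrinal was higher in mean in 4 of 4 fractions, by less than the spread between replicates. These 4 differences are not independent, since the 4 files of a set had nearly the same share. The size rested on single files: the differences in 40S, 60S, 80S and polysome files were 0.829, 0.816, 0.836 and 0.840 points without control replicate 3, 2.16, 2.15, 2.16 and 2.20 without salubrinal replicate 2, and 5.63, 5.58, 5.64 and 5.69 without salubrinal replicate 3. Without the control file of set 2 they were 5.52, 5.45, 5.51 and 5.58 points. Between fractions, the 6 pairwise differences in mean lay between -0.112 and 0.0140 points (n = 6 each), with exact permutation p of 0.918 to 0.983 and an adjusted value of 0.983 in each pair. That test leaves out the file sets, so its p reflects the spread between sets. Sign flips within file sets gave exact p = 0.03125, the smallest possible, for 80S minus 40S, polysome minus 40S and 80S minus 60S. These differences were -0.0822, -0.0975 and -0.0962 points, with adjusted values of 0.0625. By file set, the share was 92.2 to 92.3, 92.7 to 92.8 and 85.8 to 85.9% in salubrinal sets 1 to 3, against 87.8 to 87.9, 91.1 to 91.2 and 81.6 to 81.9% in control sets 1 to 3. The fractions of a set were thus far closer to each other than the sets were.

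Other rRNA-named rows held few counts. Beside the members, 6 further nuclear rRNA-named rows had 3 counts over 24 files, 516 rows named for 5S rRNA or its pseudogenes had 1572 counts, and the mitochondrial rRNA rows MT-RNR2 (16S) and MT-RNR1 (12S) had 1050 and 88. Of the 5S-named counts, 1499 lay on RNA5SP202, which RefSeq annotates as a pseudogene. RNA5SP216, RNA5SP370 and RNA5S9 followed with 17, 13 and 7 counts.

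RNA5SP202 had 52, 242 and 2 counts in the 40S files of salubrinal replicates 1, 2 and 3, against 61, 11 and 7 counts in control replicates 1, 2 and 3. In polysome files it had 42, 256 and 6 counts with salubrinal replicates 1, 2 and 3, against 14, 55 and 2 in controls. Salubrinal replicate 2 was the highest file in both fractions, and salubrinal replicate 3 was the lowest or among the lowest. MT-RNR2 had 13, 9 and 115 counts in salubrinal 40S files, against 35, 71 and 21 in control 40S files. Here salubrinal replicate 3 was the highest file and salubrinal replicates 1 and 2 lay below all controls.

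These rows, which the choice of members did not use, were tested together with 145 genes of rRNA synthesis and processing in edgeR's quasi-likelihood test over all rows that passed the filter. The genes of these lists had 1142 counts over 24 files, 80 of them had any count, and only NOP16 and RUVBL1 were deep enough in any fraction. Of listed rows, 0 of 2 passed in 40S files, 0 of 3 in 60S, 0 of 4 in 80S and 0 of 4 in polysome files (Benjamini-Hochberg threshold 0.05). Over all rows tested, 8.0, 9.83, 12.7 and 3.73% passed in the same 4 fractions. At an unadjusted p under 0.05 the counts of listed rows were 1, 0, 1 and 0 in edgeR. DESeq2 also called 0 in each fraction, with 1 listed row per fraction at an unadjusted p under 0.05. With the titled replicate number as a block, edgeR called 0, 1, 2 and 1 listed rows from 40S to polysome. Over all rows tested, that design called 0, 9, 15 and 4.

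For RNA5SP202 the log2 fold changes of salubrinal over control in edgeR were 4.63 ± 3.71, 5.21 ± 3.86, 4.41 ± 3.32 and 4.73 ± 3.73 (SE) from 40S to polysome, with adjusted p of 0.555, 0.459, 0.463 and 0.602. For MT-RNR2 they were 1.12 ± 0.46, 0.74 ± 0.39, 1.09 ± 0.43 and 0.71 ± 0.48, with adjusted p of 0.101, 0.254, 0.0747 and 0.518. The median level of MT-RNR2 over the 12 files of a treatment pointed the other way, at 34.4 CPM of gene-row counts with salubrinal and 65.9 in controls. That median gives little weight to salubrinal replicate 3, which was far above the other salubrinal files. In 40S files MT-RNR2 had 34.4, 13.3 and 265 CPM in salubrinal replicates 1, 2 and 3, against 54.9, 111 and 58.1 in controls. The direction of change in MT-RNR2 thus rested on 1 salubrinal replicate and on the measure used. RUVBL1, a helicase-related ATPase used in snoRNP assembly, had -1.06 ± 0.54 in polysome files (edgeR adjusted p = 0.250), and NOP16, a large subunit assembly factor, had 0.88 ± 0.50 in 60S files (edgeR adjusted p = 0.302). The scaling behind these values was uneven, with TMM factors of 0.0962 to 4.97 over the 24 files. Without salubrinal replicate 3, RNA5SP202 passed in all 4 fractions (edgeR adjusted p of 0.00439, 0.000287, 0.00436 and 0.00371). It also passed without control replicate 1 in 40S files (0.00225) and without control replicate 2 in 80S (0.00201) and polysome files (0.00363). These are the control files of set 2. Without the set 2 file in 60S, titled control replicate 2, no listed row passed (lowest edgeR adjusted p of 0.193).

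The rows whose counts ran most like a member's over the 24 files were few. Pearson's r was taken over log2 values per gene-row total, among rows with at least 240 counts, as a description, since the 24 points fall into 6 sets and share their denominators. For RNA28S5 the closest were RNA5SP202 (r = 0.825), RNA18S5 (0.761) and MT-ND6 (-0.379). For RNA18S5 they were RNA5SP202 (0.861), RNA28S5 (0.761) and AC079949.1 (-0.233). For RNA5-8S5 they were RNA5SP202 (0.692), RNA28S5 (0.690) and RNA18S5 (0.679). Of 166 or 167 rows compared, 2, 2 and 3 had an r above 0 with these members. RNA28S5 makes up most of the shared total, so a lower share of other rows where it is higher follows largely from arithmetic. Nothing is read from that count.

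In the input files CT010467.1 held 1308224 of 10245548 gene-row counts with salubrinal and 6839261 of 12068784 in the control. Its share was 12.8% with salubrinal (exact 95% interval 12.7 to 12.8) and 56.7% in the control (56.6 to 56.7). It was the second row with salubrinal, behind mt-Rnr2, and the first in the control. Each input is 1 library, so the difference has no replicate check and no test, and the intervals cover counting error only.

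A share that takes over 50% of a library shifts all others, so the ratio was also taken in other ways. After TMM scaling the log2 ratio of salubrinal over control was -3.09, or 8.52-fold lower with salubrinal. Scaled by total gene-row counts it was -2.15, and by the total without CT010467.1 itself -3.16. The last of these is the ratio per count on all other gene rows, where CT010467.1 had 0.146 counts with salubrinal and 1.31 in the control, 8.93-fold apart. The direction was the same in the 3 scalings. In these bulk libraries, less of this RNA per cell and more RNA of other rows cannot be told apart.

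Rows named for rRNA in the input had smaller ratios. mt-Rnr2, the mitochondrial 16S rRNA, had 1820363 counts with salubrinal and 1068328 in the control, a log2 ratio of 0.06. mt-Rnr1, the mitochondrial 12S rRNA, had 218244 counts with salubrinal and 161266 in the control (-0.27). n-R5-8s1, named for 5.8S rRNA and picked after its values were seen, had 277 counts with salubrinal and 387 in the control (-1.18, counting interval -1.42 to -0.96). CT010467.1 had 0.719 counts per mt-Rnr2 count with salubrinal and 6.40 in the control, and 4723 per n-R5-8s1 count with salubrinal and 17672 in the control. The 181 rows named for 5S rRNA had 18 counts with salubrinal and 11 in the control.

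**Figure D4:**
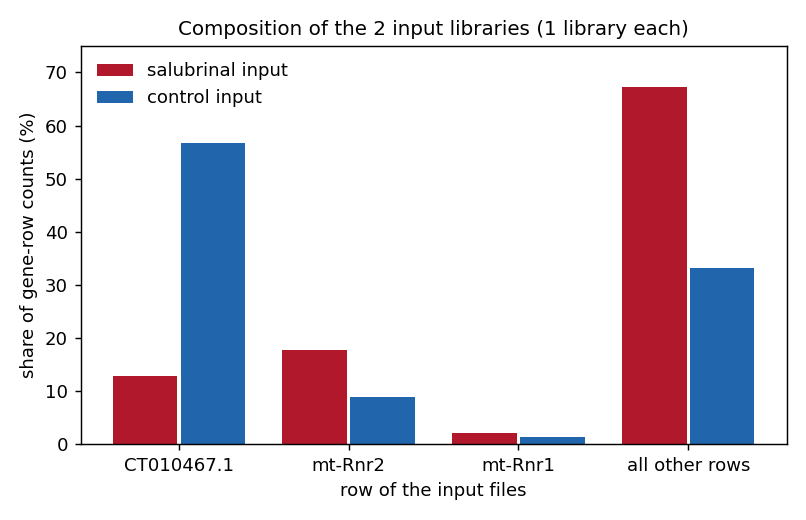
Share of gene-row counts (vertical axis, percent) taken by CT010467.1, the mitochondrial rRNA rows mt-Rnr2 and mt-Rnr1, and all other rows (horizontal axis) in the salubrinal input (left bars) and control input (right bars), 1 library each. CT010467.1 took 12.8% with salubrinal and 56.7% in the control.

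The input libraries also differed in reads that reached no row. Ambiguous reads were 3.54% of all counts with salubrinal and 9.50% in the control, reads not placed uniquely 48.6% with salubrinal and 52.6% in the control, and reads not aligned 27.3% with salubrinal and 14.4% in the control. Their part in the level of CT010467.1 was not tested. Of the melanocytic markers, 6 of 8 had at least 50 counts over both inputs, and MLANA was at 0 in both. The summed TMM-scaled level of all 8 was 1396 CPM with salubrinal and 2771 in the control. Pmel made up most of that sum (953 with salubrinal, 1928 in the control). Mitf (183, 370), Sox10 (51.6, 142) and Dct (30.4, 158) were also lower with salubrinal. Tyr was nearly level (107, 111), S100b was higher (69.8, 62.7), and Tyrp1 had 0 and 5 counts. Of the fibroblast, leukocyte, keratinocyte and endothelial markers (3, 3, 2 and 2), none reached 50 counts, and the highest sum was 1.62 CPM with salubrinal and 0.689 in the control, for keratinocytes.

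The genes that make and process rRNA were read in the same inputs, with no test. Of 145 listed, 129 had at least 50 counts over both inputs. Their median log2 ratio was 0.02, equal to that of all 10614 rows measured. A ratio of at least 2-fold was found upward with salubrinal in 2 of them, beside 2.75% of all rows, and downward in 2, beside 3.80%. Counting intervals, which leave out any spread between libraries, lay above 0 for 26 of the 129 and below 0 for 30. Over all rows the shares were 25.1% and 23.0%, so the listed genes were near the background in both directions. The same shares of all rows are the background for the interval counts of each list below.

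Of the Pol I transcription genes, 10 of 16 were measured, with a median of 0.09 and none 2-fold apart. The largest subunit, Polr1a, had 938 counts with salubrinal and 817 in the control (-0.50), and the second largest, Polr1b, 736 with salubrinal and 440 in the control (0.04). The promoter-binding factor Ubtf had a ratio of 0.03 and the initiation factor Rrn3 0.19. The highest ratios beside Rrn3 were those of Taf1b (0.46), a part of the promoter selectivity factor, and Polr1d (0.31), a subunit shared with RNA polymerase III. The lowest after Polr1a were those of the subunit gene Twistnb (-0.26) and the TATA-binding protein Tbp (0.01). Counting intervals excluded 0 for 1 gene upward and 1 downward.

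Of the genes for processing the small subunit's RNA, 45 of 46 were measured, with a median of 0.09. Counting intervals lay above 0 for 10 and below 0 for 9. Fcf1, a protein of the early small subunit precursor, had 111 counts with salubrinal and 33 in the control (1.01). Dimt1, which methylates 18S rRNA, had a ratio of 0.74 and Utp6 0.47. At the other end stood Nol6 (-0.66), Rrp7a (-0.95) and Imp3 (-1.21), the last a partner of the U3 snoRNA with 50 counts with salubrinal and 73 in the control.

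Of the genes for processing the large subunit's RNA, 41 of 46 were measured, with a median of -0.03. Intervals lay above 0 for 8 and below 0 for 12. Bop1, needed for the cuts that release 5.8S and 28S rRNA, had 340 counts with salubrinal and 451 in the control (-1.11). Rrs1 (-0.88) and Ppan (-0.80) were next lowest, and the GTPases Lsg1 (0.42) and Gnl2 (0.37) and the ATPase Nvl (0.38) were highest.

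Of the genes for snoRNA-guided modification, 12 of 13 were measured, with a median of -0.03 and none 2-fold apart. The methyltransferase Fbl (-0.03), its partner Nop56 (-0.04) and the pseudouridine synthase Dkc1 (-0.08) were close to 0. Ruvbl1 (0.44) and Ruvbl2 (-0.62), ATPases of the same complex, lay at opposite ends of the list. Shq1 (0.30) and Naf1 (0.27), assembly factors of the pseudouridylation particles, followed Ruvbl1, and Nop10 (-0.27) and Nolc1 (-0.20) preceded Ruvbl2. Counting intervals lay above 0 for 2 genes and below 0 for 2.

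Of the pre-rRNA nucleases and nucleolar scaffold genes, 21 of 24 were measured, with a median of 0.01. Exosc8, a subunit of the RNA exosome, had 272 counts with salubrinal and 68 in the control (1.28), whereas the exosome subunits Exosc5 (-0.82) and Exosc4 (-0.88) were among the lowest. C1d (0.76) and Rpp40 (0.70) were next highest, each on under 50 counts per library, and Tcof1 (-0.92) was the lowest. The abundant nucleolar proteins Npm1 and Ncl had ratios of 0.01 and -0.14, and the exonuclease Xrn2 0.11. Intervals lay above 0 for 5 genes and below 0 for 6.

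**Figure D5:**
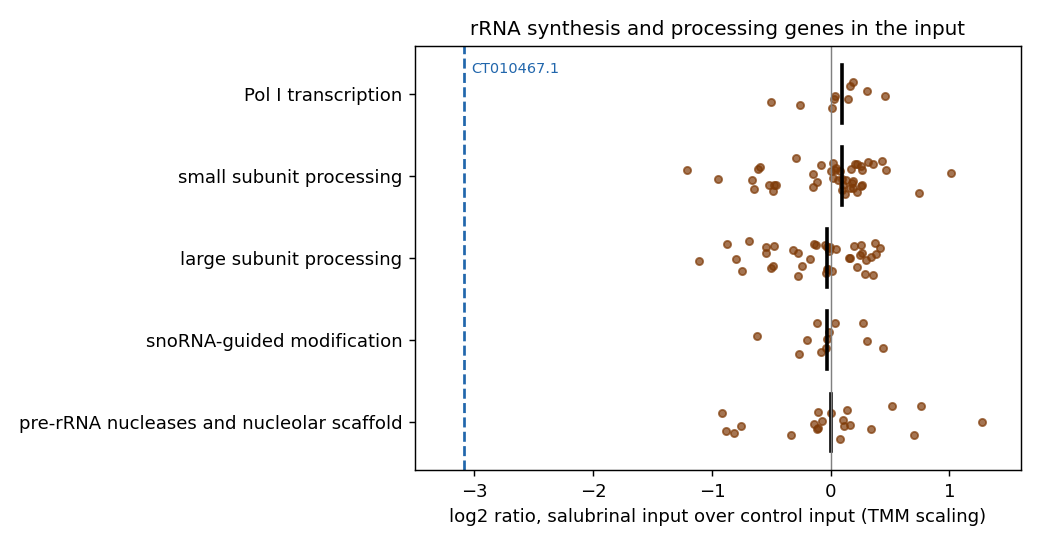
Log2 ratio of salubrinal over control input after TMM scaling (horizontal axis) for the measured genes of 5 lists (rows), 1 point per gene and a bar at each median. The list medians lie between -0.03 and 0.09, and the dashed line marks CT010467.1 at -3.09.

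Scaling by total gene-row counts, which CT010467.1 dominates in the control, moved the median of all rows to 0.95, and relative to that shift the 5 list medians lay between -0.05 and 0.08.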

How the data were processed

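Total RNA libraries (TruSeq stranded kit, per the labels' protocols) of 24 gradient fraction samples and 2 inputs were used. The authors deposited read counts per gene, not normalized; the submitters' processing notes name the build hg19 and HTSeq 0.5.3p3, DESeq, STAR, FastQC 0.11.5 and SAMtools 0.1.19.24. No source used here gives the strand setting or the reference behind the mouse-style input rows. The 5 summary rows were left out of library sizes.

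Shares and ratios were computed from the deposited counts with exact Clopper-Pearson intervals at 95%; a count of 0 was taken to allow 3. File sets were found by chi-square over rows outside rRNA with at least 10 counts. Salubrinal and control files of a fraction were compared in R 4.3.3 with edgeR 4.0.16 (filterByExpr, TMM, robust quasi-likelihood fit, Benjamini-Hochberg over all rows tested). The code was also run on simulated data. All simulated files of a fraction shared 1 pooled composition, so that run does not bear on the uneven scaling of the real files. The SE was derived from each fold change and its p. Exact permutation tests used scipy 1.17.1. Input ratios used TMM and a prior count of 2, with 50 counts needed over both. Alternatives were DESeq2 1.42.0, RLE factors, no filter, removal of rRNA rows, the replicate block, other denominators and leaving out each replicate.

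The members, gene lists and rule for names were chosen with earlier results of these data known. Named were the members, the 6 other rRNA-named rows with most counts, input rRNA rows with at least 50 counts, the 3 highest and 3 lowest genes of each list with a fixed panel, and the 3 rows most like each member. Cell type markers were read in the inputs.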

Additional observations from a re-analysis of the deposited data

Results flagged for a closer look

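Reads that did not align were 27.3% of all counts with salubrinal and 14.4% without, in the input libraries. They stand out because they lie outside the gene rows that the comparisons use and were more frequent than in the control library, with 1 library on each side and no test. In the fraction files the same share was 0.511 to 0.929%.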

How the results depend on the processing

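Of 262 alternative values of 53 results, 240 kept their direction and their side of the threshold, or for counts and untested values stayed within 1.5 times or 1 SD. Leaving out 1 of 3 files cannot move a mean by 1 SD. A permutation test of 3 against 3 files cannot go below p = 0.1, nor one of 2 against 3 below 0.2. The count of 240 is thus in part fixed in advance and is no measure of stability. Leaving out 1 replicate gave 0 to 1 listed rRNA or rRNA-processing rows called per fraction. With the titled replicate number as a replicate block, edgeR called 0 listed rows in 40S and 1 in 60S (RNA5SP202). It called 2 in 80S (MT-RNR2 and RNA5SP202) and 1 in polysome files (RNA5SP202). The numbers track across the treatments only in part. Same-numbered files correlated between -0.288 and 0.553, with 7 of 12 pairs above 0.1. Replicate 3 pairs lay between 0.421 and 0.553, and replicate 2 pairs between 0.348 and 0.371 outside 40S. Replicate 1 pairs stayed between -0.0448 and 0.0159 in all fractions. The lowest is the 40S pair titled replicate 2, whose control title did not match its file set. Salubrinal 40S replicate 2 correlated at 0.444 with the control 40S file titled replicate 1, which belongs to file set 2. The 40S block used the titles. Over all rows, 18, 23, 27 and 9 were called in 40S, 60S, 80S and polysome files, against 0 in each with DESeq2, 1, 0, 0 and 0 with no filter, 45, 41, 30 and 19 without the 3 rRNA rows, 0, 9, 15 and 4 with the block, and 27, 26, 32 and 11 with RLE factors. Leaving out 1 replicate gave 0 to 47, 0 to 39, 0 to 46 and 0 to 39. With RLE factors 13 of the 27 calls in 40S files were higher with salubrinal, against 14 of 18 with TMM, and in 80S files 11 of 32 against 16 of 27. In 60S files these were 11 of 26 against 16 of 23. The polysome minus 80S share of reads not placed uniquely was 0.0274 points over aligned reads only, against -0.0153 over all reads. Sign flips within file sets gave exact p = 0.03125, the smallest possible, for 80S and polysome minus 40S and for 80S minus 60S, with adjusted values of 0.0625, so no call changed. The CT010467.1 share was 8.51% with salubrinal and 21.8% in the control when ambiguous reads were added, 15.95% and 63.1% without mitochondrial rows, and 0.902% and 3.36% over all counts, as the denominators differ. Scaled by total gene-row counts, list medians were 1.02 (Pol I), 1.03 (small subunit), 0.90 (large subunit), 0.90 (snoRNA-guided) and 0.95 (nucleases and scaffold). RNA5-8S5 rests on so few counts that its mean share in salubrinal 40S files was 0.00201% without replicate 1, against 0.00663% with it. Depth outside rRNA, 864 to 23679 counts per file, limits every statement on other rows, and each input is 1 library.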

Other observations

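The share of reads that did not align kept an order across the gradient that the rRNA rows did not have. The polysome file was the highest of its set in 6 of 6 file sets, and the 40S file was the lowest in 5 of 6, with the 60S file lowest in the other. In 40S, 60S, 80S and polysome order, the shares were 0.546, 0.567, 0.594 and 0.613% in salubrinal set 1. In control set 3 they were 0.691, 0.691, 0.722 and 0.929%, and the first pair differed only in the last digits. This order was noticed after the data were seen and has no test.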
